A study of Mus musculus with 2 samples.

Results

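Complement components and regulators were followed in mouse colon by every probe set whose gene symbol in the platform annotation is C1qa, C1qb, C1qc, C2, C3, C4b, Cfb, Cfi or Cfp. Of these 9 genes, 7 had at least 1 probe set of their own, 12 probe sets together, out of 18193 genes on the array. No probe set was named C3 in the annotation used here, so C3 was not analysed here. The only probe set listing C4b also lists its near-identical neighbour C4a, and it is given separately. The RNA came from colon mucosal scrapings of C57BL/6 mice aged 6 to 8 weeks (7 weeks in the design text) that had all received DSS (dextran sulfate sodium, an agent that damages the colonic lining) at 3% for 3 days. One array carried Hif-2αF/F RNA, from mice whose Epas1 gene, which encodes the hypoxia-inducible factor HIF-2α, is flanked for conditional removal, and 1 array carried Hif-2αΔIE RNA. The labels do not spell out ΔIE, which is read here as deletion in the intestinal epithelium, and the sources used here name no promoter for Cre. According to the design text there were 6 mice of the F/F and 5 of the ΔIE genotype. The sources used here do not say whether RNA was pooled, and mice without DSS were not analysed here. With 1 array per genotype there is no replicate check, and no test, error or p-value could be given for any difference.

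Complement is a cascade of plasma proteins and proteases that tags microbes and damaged cells and recruits leukocytes. In the classical pathway the recognition protein C1q, built from the products of C1qa, C1qb and C1qc, binds immune complexes and activates the proteases C1r and C1s, which cleave C4 and C2 to form a C3 convertase. In the alternative pathway factor B (Cfb) supplies the protease of the convertase and properdin (Cfp) stabilises it, while factor I (Cfi) cuts C3b and C4b and so ends both. The liver makes much of the plasma pool. Macrophages and dendritic cells are the main source of C1q in tissues, properdin comes chiefly from leukocytes, and epithelial cells can make C3 and factor B.

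Levels are on the log2 scale of RMA (robust multi-array averaging), and every difference is ΔIE minus F/F on that scale. The targeted gene was read first. The brighter Epas1 probe set stood at 11.90 (F/F) against 11.77 (ΔIE), and the dimmer one at 6.98 against 7.15. Whether these probes lie in the deleted part was not determined here, so they check nothing. The 4 control probe sets for Cre recombinase ranged from 2.92 to 4.22 in F/F and from 7.86 to 10.01 in ΔIE. Cre signal was thus high on the array labelled ΔIE and low on the array labelled F/F. Whether it came from a transgene or from a control RNA added to the sample was not determined here.

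All measured complement members were lower on the ΔIE array, by unequal amounts. All 12 probe sets lay below 0, from -1.32 to -0.15, against 40.7% of all probe sets other than controls. A gene was represented by its probe set with the highest mean over both arrays and kept when the higher array reached 6.11, the median of all probe sets. Of the 7 genes with values 6 were kept, all 6 of them above that level on both arrays, and Cfi was not. The 6 kept genes had a median difference of -0.73, whereas the median over all 11899 genes kept was 0.02, with quartiles of -0.18 and 0.19. At 2-fold, 2 of the 6 were lower, C1qb and Cfp, where 5.3% of all genes kept were. At 1.5-fold, 5 of the 6 were lower, all but C2, where 10.6% of all genes were. None of the 6 was 2-fold higher, as 1.15% of all genes kept were. The only measure of error within these arrays is the agreement of probe sets of 1 gene. In 5110 genes at least 2 probe sets passed the filter, and for 95% of them the brightest pair gave differences no more than 0.41 apart. The median gap was 0.10. Neither figure includes variation between mice.

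**Figure D1:**
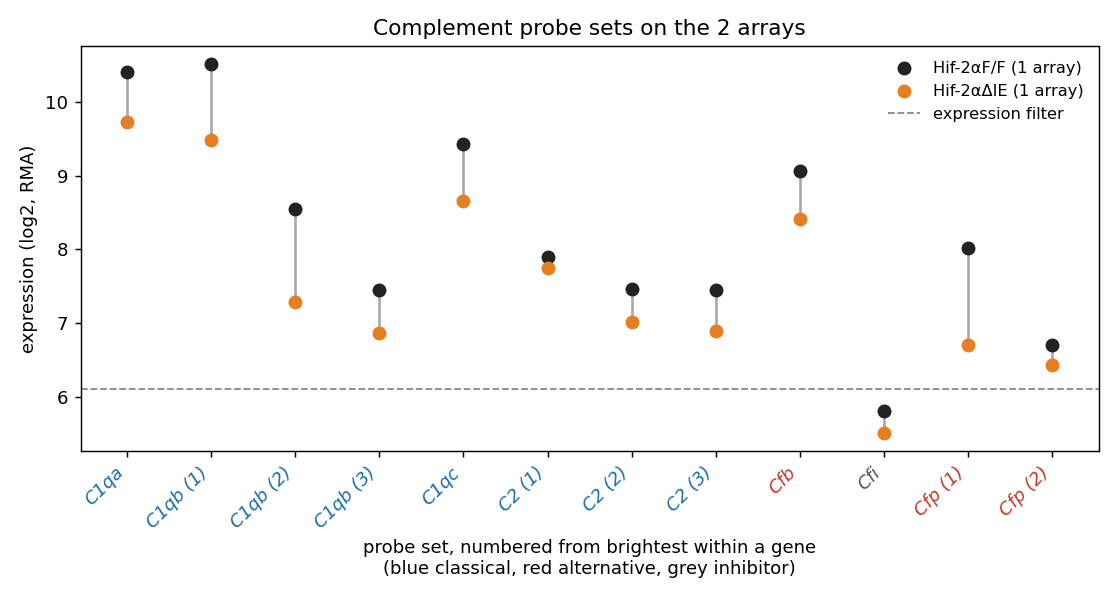
Expression (log2, RMA) of the 12 complement probe sets on the F/F array (black) and the ΔIE array (orange), 1 array each, with the expression filter at 6.11 dashed. Every orange point lies below its black partner, with the widest gap for the brighter Cfp probe set (8.03 against 6.70) and the narrowest for the brightest C2 probe set (7.90 against 7.75).

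The 3 chains of C1q were lower together. C1qa, the A chain (probe set 1417381_at), read 10.41 in F/F and 9.72 in ΔIE, for a difference of -0.69 or 1.61-fold. C1qc, the C chain (1449401_at), read 9.42 and 8.65, a difference of -0.77 or 1.71-fold. C1qb, the B chain, read 10.51 and 9.49 by its brightest probe set (1417063_at), a difference of -1.02 or 2.03-fold. The 3 chain differences lay within 0.33 of each other. That is above the median gap of 0.10 between probe sets of a gene and below the 95th percentile of 0.41. The B chain passed 2-fold by a narrow margin, and its other probe sets fell on either side of that line. One of them (1437726_x_at) read 8.55 and 7.29, a difference of -1.26, and the other (1434366_x_at) 7.46 and 6.87, a difference of -0.59; the suffix marks probes that can match more than 1 transcript. Among all genes kept, 8.84% had a difference at or below that of C1qa, 7.90% at or below that of C1qc and 5.13% at or below that of C1qb.

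C2, the protease that joins the cleaved C4 in the classical and lectin convertase, differed least. Its brightest probe set (1441912_x_at) read 7.90 in F/F and 7.75 in ΔIE, for a difference of -0.15, and 27.6% of genes kept lay at or below it. The other C2 probe sets gave larger differences. Probe set 1416051_at read 7.46 and 7.02, a difference of -0.44, and 1457664_x_at read 7.45 and 6.90, a difference of -0.55. No C2 probe set reached 1.5-fold, and the averaged difference of the 3 was -0.38.

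The probe set listing both C4a and C4b (1418021_at) read 11.22 in F/F and 10.06 in ΔIE, for a difference of -1.16 or 2.24-fold. C4b is the complement protein that classical and lectin proteases cleave, and C4a is its neighbour of very similar sequence. The signal cannot be divided between them, so it was left out of the counts above. With it counted as C4b, a choice made after its value was seen, 3 of 7 genes would be 2-fold lower and the median would be -0.77.

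The alternative pathway was measured through factor B and properdin. Cfb (1417314_at) read 9.06 in F/F and 8.41 in ΔIE, for a difference of -0.65 or 1.57-fold, with 9.47% of genes kept at or below it. Cfp gave the largest difference of any member, but its probe sets disagreed. The brighter one (1452279_at) read 8.03 and 6.70, a difference of -1.32 or 2.50-fold, with 2.87% of genes kept at or below it. The dimmer one (1447537_at) read 6.71 and 6.44, a difference of -0.27 or 1.21-fold, from levels close to the filter. Averaged over both, Cfp differed by -0.80 and was no longer 2-fold lower. Cfi (1418724_at), the protease that inactivates C3b and C4b, read 5.81 and 5.52, below the filter on both arrays, so its difference of -0.30 has little weight.

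Set side by side, the 4 classical genes kept (C1qa, C1qb, C1qc and C2) had a median of -0.73 and the 2 alternative genes (Cfb and Cfp) a median of -0.99, which puts the classical median 0.26 above the alternative one. That gap lies between 0.10 and 0.41, the median and the 95th percentile of the gap between probe sets of a gene. Neither figure measures the spread of a median over genes. Both the size and the sign of the pathway gap depended on the setting. It was 0.50 with the C1q chains counted as 1 member, -0.0061 with probe sets averaged, -0.12 with a filter at the 75th percentile, which removes Cfp and C2, and -0.18 with the dimmest probe set of each gene, an alternative chosen after seeing the data. The ranges of the pathways overlapped, since C1qb, C1qc and C1qa all lay between Cfp and Cfb. No difference between the classical and the alternative pathway was therefore resolved on these arrays.

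**Figure D2:**
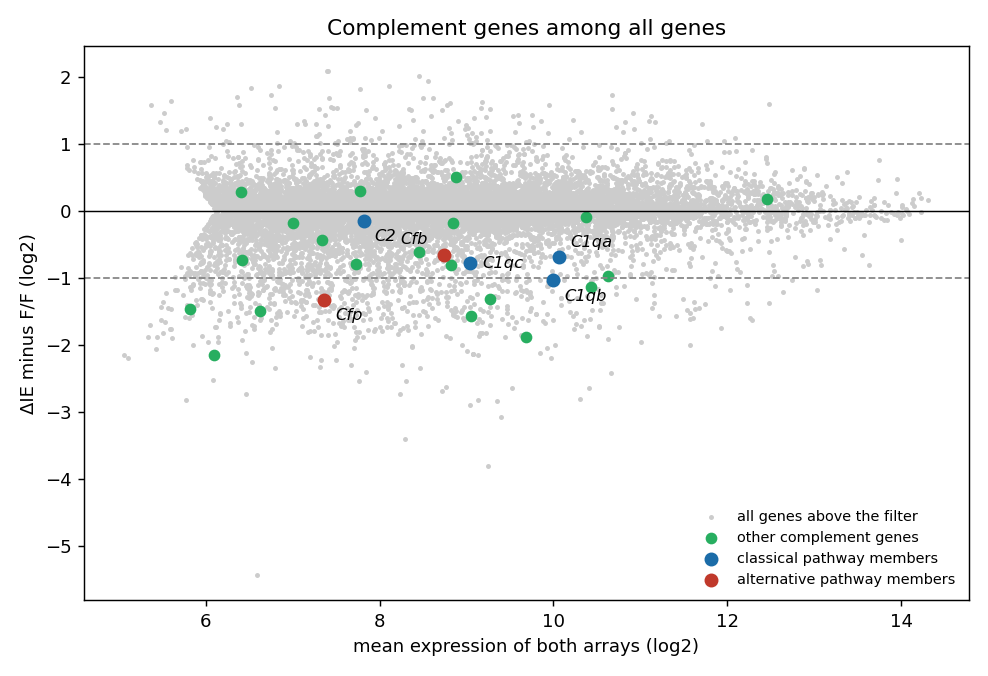
Difference between the arrays (ΔIE minus F/F, log2) against the mean level of both for all 11899 genes kept (grey), the classical (blue) and alternative (red) members and the other complement genes (green), with dashed lines at 2-fold. All 6 members lie below 0, and only C1qb and Cfp lie past the lower dashed line.

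Promoter sequences were at hand for 3 of the 7 genes with values, C1qb, C1qc and Cfp, from RefSeq on build GRCm38.p6. No promoter was at hand for C1qa, C2, Cfb or Cfi. The 3 are thus shown because they were available and are not a set picked for a shared difference. Each run covers 250 bases before to 50 bases after the gene's start and is written 5′ to 3′ on the gene's own strand, which is the minus strand for all 3. Capitals mark the PU box, GAGGAA or its reverse complement TTCCTC, the letters bound by the myeloid factor PU.1; this motif was chosen after the sequences had been seen. The C1qb promoter is chr4:136886151-136886450, that of C1qc chr4:136892865-136893164 and that of Cfp chrX:20931506-20931805.
C1qb: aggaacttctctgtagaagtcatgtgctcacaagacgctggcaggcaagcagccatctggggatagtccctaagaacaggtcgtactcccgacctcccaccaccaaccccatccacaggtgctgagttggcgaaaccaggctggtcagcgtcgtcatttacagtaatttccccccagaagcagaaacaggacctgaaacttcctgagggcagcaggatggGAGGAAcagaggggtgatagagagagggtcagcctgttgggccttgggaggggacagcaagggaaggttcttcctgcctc
C1qc: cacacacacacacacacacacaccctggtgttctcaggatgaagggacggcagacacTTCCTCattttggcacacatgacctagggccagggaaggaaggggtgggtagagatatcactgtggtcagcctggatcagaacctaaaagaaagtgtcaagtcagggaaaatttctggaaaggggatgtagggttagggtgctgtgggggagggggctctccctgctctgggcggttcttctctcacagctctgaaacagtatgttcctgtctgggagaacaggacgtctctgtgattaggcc
Cfp: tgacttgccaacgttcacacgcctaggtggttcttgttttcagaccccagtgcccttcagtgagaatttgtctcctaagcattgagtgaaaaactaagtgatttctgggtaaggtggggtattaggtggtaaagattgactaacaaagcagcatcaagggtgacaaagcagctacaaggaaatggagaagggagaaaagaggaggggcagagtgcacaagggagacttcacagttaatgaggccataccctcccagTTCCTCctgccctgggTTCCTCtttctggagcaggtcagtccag
The PU box occurred in all 3, at -30 from the start on the gene's strand in C1qb, at -193 on the opposite strand in C1qc, and at 2 places on the opposite strand of Cfp just after the start; on both strands it occurs in 28.3% of the 32851 promoters in the table. A loose NF-kB pattern, GGG and CC with 5 bases of any kind between, was also found in all 3, but 50.8% of all promoters hold it. A narrower NF-kB pattern, GGG and TTTCC with 2 bases of any kind between (1.63% of all promoters), was in none of the 3. The STAT pattern TTCNNNGAA (8.3%) and the interferon response pattern, GAAA repeated after 2 bases of any kind (3.44%), were in none either. All patterns were searched on both strands. Such matches describe letters only and show no binding.

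The rest of the cascade was described by 49 further complement genes in 7 role lists, of which 40 were on the table and 20 were kept. Of these 20 genes 16 were below 0, where 46.5% of all genes kept were, and the median was -0.76. At least 2-fold lower were 7 of them, where 5.3% of all genes kept were. At least 2-fold higher were 0, where 1.15% of all genes kept were. Of the 7 genes 2-fold lower, 4 were above the filter on both arrays and 3 (C4bp, Cr2 and Itgam) on the F/F array alone, so that these 3 entered through the array on which they were high, as did C5ar1. Over the 16 genes above the filter on both arrays, 12 were below 0 and the median was -0.52. Of these 16 genes 4 were 2-fold lower, where 483 of all 11280 genes above the filter on both arrays were. Without any filter the median over all 40 genes was -0.12. The share below 0 and the median over all genes were taken only for the 11899 genes kept, not for these other filter settings.

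The proteases that work with C1q were lower too. C1ra, which encodes C1r, read 9.92 in F/F and 8.62 in ΔIE, for a difference of -1.31 or 2.48-fold. C1s1, which encodes C1s, read 11.00 and 9.87, a difference of -1.14 or 2.20-fold. Each rests on a single probe set, and both differences were larger in size than those of the 3 C1q chains by their brightest probe sets. Serping1, whose product C1 inhibitor blocks C1r and C1s, read 11.11 and 10.14, a difference of -0.96 or 1.95-fold. Protease and inhibitor transcripts of the C1 complex were thus lower together on the ΔIE array.

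The lectin pathway, which starts from sugar-binding proteins in place of C1q, did not share that direction in the few genes that could be read. Of 9 genes on the table only Masp1 and Fcna were kept. Below the filter, Colec12 read 6.10 and 5.45, a difference of -0.64, Colec11 differed by -0.0089 and Fcnb by 0. Mbl1 (0.47), Colec10 (0.37), Mbl2 (0.10) and Masp2 (0.10), also below the filter, were above 0. Fcna, a ficolin of macrophages, read 7.63 in F/F and 7.93 in ΔIE, for a difference of 0.30. Masp1, a lectin pathway protease, read 6.27 and 6.56, a difference of 0.29, but its 5 probe sets ran from -0.20 to 0.33. Of the terminal pathway, which forms the membrane attack complex, 6 genes were on the table (Hc, C6, C8a, C8b, C8g and C9) and 0 were kept. Hc, which encodes C5, read 5.26 and 5.44, and C9 read 3.60 and 3.69. RMA gives no detection call, so these dim values do not show that the transcripts were absent.

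The inhibitors were read by type, and the difference between types was not tested. Among 4 fluid phase inhibitors kept, Clu (clusterin, which binds the assembling attack complex) read 10.63 in F/F and 8.75 in ΔIE, for a difference of -1.87 or 3.67-fold, and its 4 probe sets ran only from -1.97 to -1.86. C4bp, which encodes a chain of the C4b-binding protein, read 6.55 and 5.09, below the filter on the ΔIE array. Cpn1, a subunit of the carboxypeptidase that inactivates anaphylatoxins, went the other way, at 8.62 and 9.13, a difference of 0.51. The 4 membrane inhibitors kept, which shield the body's own cells, were all below 0, where 46.5% of all genes kept were. Their median was -0.17. Cd55 (decay-accelerating factor) read 8.75 and 8.15, a difference of -0.61, Cd59a differed by -0.18, Susd4 by -0.17 and Cr1l (Crry) by -0.08. Of the 4, only Cd55 passed 1.5-fold.

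Of 8 complement receptors kept, 7 were below 0, where 46.5% of all genes kept were, and the receptor median was -0.79. Cr2, Itgam and C5ar1 were above the filter on the F/F array alone, and of the 5 above it on both arrays 4 were below 0, again with a median of -0.79. For that stricter filter the share of all genes below 0 was not taken. The integrin chains of complement receptor CR3, which takes up iC3b-coated particles, were both lower. Itgb2 read 9.83 in F/F and 8.27 in ΔIE, for a difference of -1.56 or 2.94-fold, and Itgam read 7.37 and 5.89, below the filter on the ΔIE array. Cr2, the C3d receptor of B cells and follicular dendritic cells, read 7.17 and 5.02. The anaphylatoxin receptor genes differed less by their brightest probe sets: C3ar1 read 7.55 and 7.12, a difference of -0.43, and C5ar1 6.78 and 6.05, a difference of -0.73, though its second probe set gave -1.43. C1qbp, which encodes a mainly mitochondrial protein that can bind C1q, differed by 0.18.

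**Figure D3:**
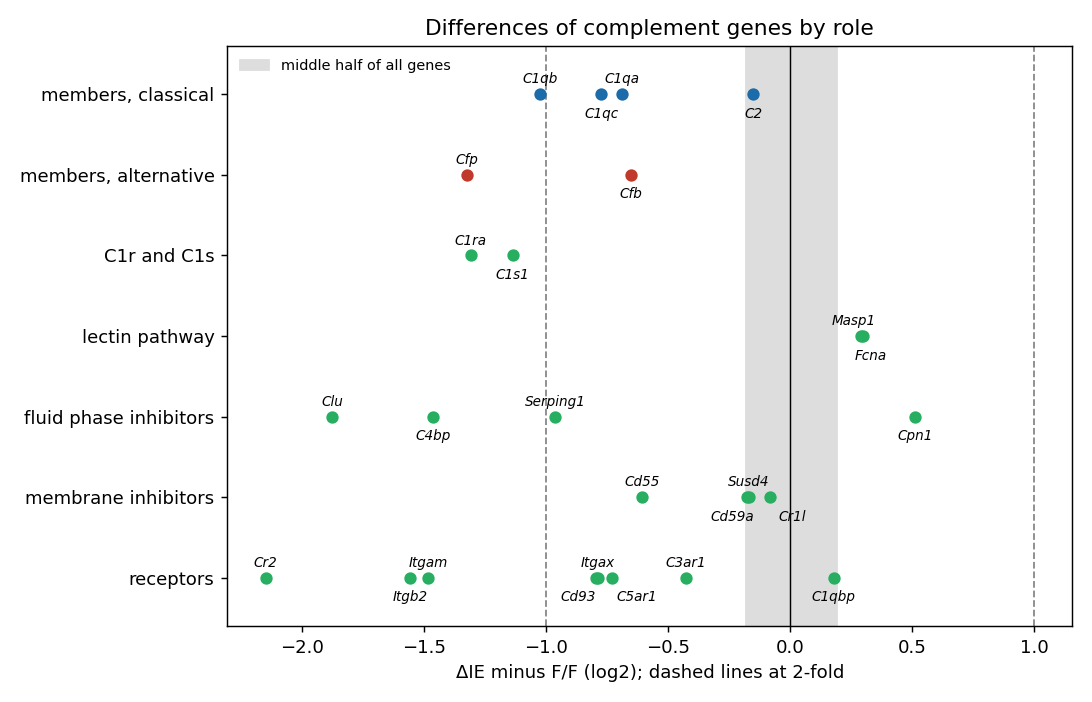
Difference between the arrays (ΔIE minus F/F, log2) for the members and the other complement genes kept, by role, 1 point per gene, with the quartile range of all genes shaded (-0.18 to 0.19) and dashed lines at 2-fold. C1r, C1s, clusterin and the CR3 chains lie past the lower dashed line, whereas the lectin pathway genes and Cpn1 lie to the right of 0.

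Because scrapings hold several cell types, markers of those cells were read on the same arrays. In bulk RNA, fewer cells of a type and less RNA per cell cannot be told apart. Of all genes kept, 46.5% were below 0, which is the share to set beside each count of lower markers among those kept. That share was not taken for genes above the filter on both arrays. Of 18 resident macrophage markers kept, out of 20 listed, 17 were lower, with a median of -0.56. The log2 of their summed level was 14.98 in F/F and 14.47 in ΔIE. They ranged from Tyrobp at -1.37 to Mertk, a receptor for dying cells, at 0.56. The C1q chains lay inside this range, with 11 of the 18 markers above C1qa, 11 above C1qc and 13 above C1qb. The 7 markers below C1qa and C1qc were Tyrobp, Cd68, Aif1, Lyz2, Cd14, Csf1r and Apoe. The 11 above both were Mrc1, Adgre1, Ms4a7, Stab1, Maf, Cx3cr1, Cd163, Folr2, Trem2, Selenop and Mertk. Whether each listed gene is specific to resident macrophages in this tissue, rather than shared with monocytes or neutrophils, was not tested. The pan-macrophage receptor Csf1r read 11.37 and 10.40, a difference of -0.96, the macrophage receptor gene Adgre1 differed by -0.64, and the scavenger receptor Cd163 by -0.26. The place of Cfp depended on its probe set: 17 of the 18 markers lay above the brighter one, 5 above the dimmer one and 11 above their mean.

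Monocyte and neutrophil markers were lower as well. All 7 monocyte markers kept, of 10 listed, were lower, with a median of -1.20 and a summed level of 14.02 in F/F and 13.68 in ΔIE. By the median that is a larger difference than that of the resident macrophage list. By the summed level it is a smaller one (-0.34 against -0.52), but a summed level is weighted towards the brightest genes. The brightest monocyte marker was Plac8, whose level fell only from 13.57 to 13.46 (-0.10). Selenop was the brightest resident macrophage marker and fell from 13.57 to 13.53 (-0.05). The summed levels therefore do not rank the lists. Among the monocyte markers, S100a4 (-1.85), the chemokine receptor Ccr2 (-1.43) and the Fc receptor Fcgr1 (-1.43) had the largest differences. All 13 neutrophil markers kept, of 17 listed, were lower, with a median of -1.56 and a summed level of 15.76 and 14.79. Clec4e, which read 9.94 and 7.94, led them with Camp (-1.87) and Trem1 (-1.79). The brighter Cfp probe set, at -1.32, lay above 10 of these 13 and the C1q chains above 11 or 12 of them. All 10 fibroblast markers were lower as well, with a median of -0.89 (summed level 15.27 and 14.51). They ran from -1.19 to -0.37, led by Thy1 and Col1a1, both at -1.19, and Lum was at -0.94. Of C1ra and C1s1, which stromal cells express, C1ra at -1.31 lay below that whole range and C1s1 at -1.14 inside it. Whether the 2 follow the stromal markers was not tested.

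Markers of the colon epithelium were not lower as a group. Of 12 epithelial markers, 12 were kept and 3 were lower, with a median of 0.15 and a summed level of 16.89 in F/F and 17.03 in ΔIE. Cdx2 differed by 1.02, Krt20 by 0.30 and Muc2 by 0.28. Of 12 hepatocyte genes listed 3 were kept, with a summed level of 10.41 in F/F and 9.39 in ΔIE. Ttr, which other tissues also express, read 8.34 in ΔIE and was 3.16-fold lower there than in F/F (-1.66), the largest difference of the list. Tat read 8.19 and 8.10, and Apoh read 5.46 and 6.11. The other 8 on the table were below the filter on both arrays, among them albumin (Alb), which read 4.98 and 5.25. Markers of tissue position differed too. The 7 posterior Hox genes kept had a median of -1.49, and 7 squamous epithelium genes, a tissue of the anorectal junction, a median of -1.36. The 6 adipocyte genes kept had a median of 0.85 and the 6 skeletal muscle genes a median of 1.27. B cell markers had a median of -1.67 (7 genes kept), endothelial markers -0.53 (10 genes) and T cell markers -0.37 (4 genes). Some of these genes passed the filter only on the array where they were high: 3 posterior Hox genes, 3 B cell markers, 2 skeletal muscle genes and 1 gene each of the squamous, endothelial, dendritic cell, hepatocyte and resident macrophage lists. Over the genes past the filter on both arrays, all 4 posterior Hox genes and all 4 B cell markers were lower (medians -2.13 and -1.81), all 4 skeletal muscle genes were higher (1.58), and the resident macrophage median over 17 genes was -0.64. Of the dendritic cell and mast cell lists only 3 and 2 genes were kept, with medians of -0.32 and 0.33. The 2 mast cell genes went opposite ways, Mcpt2 at -0.27 and Kit at 0.93, so their median gives no direction for the list. The part of these cell types and tissues in the complement differences was not tested.

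**Figure D4:**
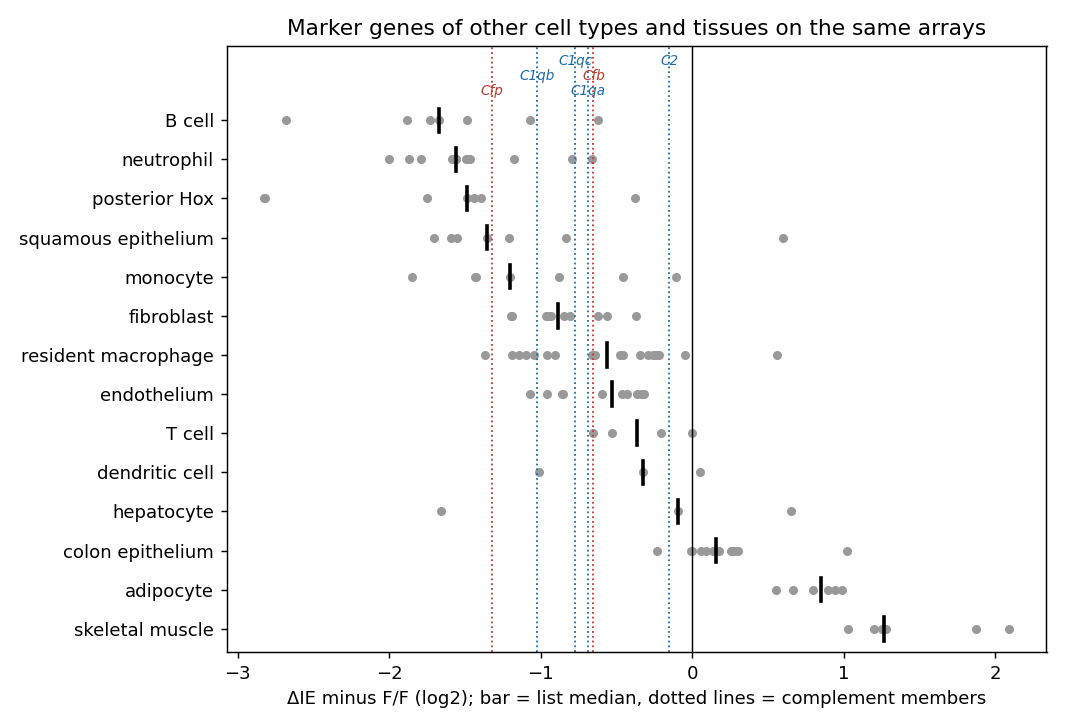
Difference between the arrays (ΔIE minus F/F, log2) of marker genes, 1 grey point per gene with the list median as a bar, for lists with at least 3 genes kept; dotted lines give the 6 complement members. The C1q chains lie within the spread of the macrophage, monocyte, neutrophil, B cell, fibroblast, endothelium and several other lists, and the colon epithelium list centres on 0.15.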

How the data were processed

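The study has 2 samples, 1 array per genotype, grouped by the genotype label. Per the labels' protocols, RNA was extracted with Trizol and amplified from 250 ng. The deposited table holds log2 expression of 45101 probe sets, which the authors computed by RMA in affy, per the submitters' processing notes; RMA corrects background, equalises array distributions by quantiles and summarises each probe set. The sources used here give no versions and do not say which arrays were normalized together. Quantile normalization equalises the arrays' distributions, so a shift in all genes would not be seen, and RMA compresses differences of dim probe sets. In the platform annotation 34958 probe sets had 1 symbol, 932 had several and 9211 had none; those with several or none were left unnamed, and 64 control probe sets were left out of gene counts. No symbol changed on lookup by Entrez ID in RefSeq's GRCm38.p6 gene table, which lacked the ID for 204 probe sets.

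A fold is 2 raised to the size of the log2 difference; the count threshold was 2-fold. Named are all members, the other complement genes 2-fold different or the 3 of largest difference in each role list, up to 3 leading genes per marker list, and Epas1. Hc, C9, Alb, Csf1r, Adgre1, Cd163, the other resident macrophage markers, Plac8, Lum and other small differences were named after their values were seen. So were the lectin pathway genes below the filter. Genes of like pattern were not sought, since 2 arrays define no pattern. The members and lists were chosen with earlier results of these data known. Alternatives were probe set averaging, leaving out _s_at and _x_at probe sets, other filters, median and lowess centring (span 0.3), thresholds of 1.5-fold and 3-fold, and other weights of C1q, C4b and probe sets. The gene counting was tested on simulated data. Python 3.11.15, numpy 2.4.6, pandas 2.3.3, statsmodels 0.14.6 and matplotlib 3.10.9 were used.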

Additional observations from a re-analysis of the deposited data

How the results depend on the processing

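Precision is limited by having 1 array per genotype. No paired analysis was possible because each genotype has 1 array, and counting C3 with the alternative pathway was not run because C3 had no named probe set. A value was taken to have moved where it shifted by over 0.41. Every member kept stayed below 0 under every alternative that gave it a value, and the median over members ranged from -0.78 to -0.62. The count of members 2-fold lower, 2 as reported, was 0 with probe sets averaged, 0 with the dimmest probe set of each member (chosen after seeing the data), 1 with the filter raised to the 75th percentile, 5 at 1.5-fold and 0 at 3-fold. With the dimmest probe sets the alternative pathway median was -0.46 and the classical minus alternative gap -0.18; the gap ranged up to 0.50, with the C1q chains counted as 1 member. For the other complement genes, the median was -0.12 without a filter, and the count 2-fold lower, 7 as reported, was 4 with that higher filter, 4 when both arrays had to pass, 12 at 1.5-fold and 2 at 3-fold. Over all genes, 631 were 2-fold lower and 137 higher; 381 were lower with the higher filter, 1267 lower and 520 higher at 1.5-fold, and 177 lower and 20 higher at 3-fold. The lower counts under a stricter filter or threshold follow from fewer genes or a stricter line; the median without a filter adds the 20 complement genes that were too dim to be kept, and the cause of the other shifts was not tested.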
